A study of Mus musculus with 4 samples.

Results

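Plasmin is the protease that dissolves fibrin and opens the matrix around cells, and it is made from plasminogen by the activators urokinase (Plau) and tissue plasminogen activator (Plat). Urokinase is held at the cell surface by its receptor (Plaur). Serpins are a family of secreted and intracellular proteins, most of which trap a serine protease in an irreversible complex; a few have lost that activity. In fat tissue, preadipocytes and adipocytes secrete several serpins, and plasminogen cleavage has been linked to adipocyte differentiation in culture.

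The 6 genes described here are Plau, Plat, Plaur and the serpin genes Serpine2, Serpinf1 and Serping1. They were picked by symbol from the 16709 gene symbols of the authors' table, and all 6 were found, each with 1 transcript. Serpine2 encodes protease nexin 1, which inhibits thrombin, urokinase and tissue plasminogen activator. Serpinf1 encodes pigment epithelium-derived factor, a serpin without protease inhibitor activity, and Serping1 encodes the inhibitor of the complement C1 proteases, plasma kallikrein and factor XII.

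RNA sequencing was done on 3T3-L1 preadipocytes, a mouse fibroblast-like cell line, treated for 24 h with 25 µM Nutlin-3a or with an equivalent amount of its vehicle DMSO. The compound blocks the binding of MDM2, a ubiquitin ligase, to p53, so the comparison asks which transcripts differ once p53 is freed in these cells. The 4 libraries were 2 biological replicates of each group, but the table gives 1 FPKM value per transcript for both of them together (fragments counted per kilobase of transcript and scaled to library size). With no value per library there is no replicate error, no test and no p-value for any difference below, and the depth behind each value is unknown. In this bulk RNA, fewer cells of a type and less RNA per cell cannot be told apart.

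As a check of the treatment, the p53 target Cdkn1a, the p21 gene, was listed at 35.2 FPKM in DMSO and 386 FPKM with Nutlin-3a. Mdm2, the target of the compound and also a p53 target, went the other way, at 773 FPKM in DMSO and 0 in Nutlin-3a, where a listed 0 can be a failed estimate. Fibroblast and preadipocyte markers ranged widely, from Vim at 1181 against 3169 FPKM (here and below, Nutlin-3a against DMSO) to Lum at 0.0601 against 0.0886 FPKM. Dlk1, the only compared marker with a higher value in Nutlin-3a, had 623 against 513 FPKM, and Pdgfra had 9.14 against 30.0 FPKM. Of 9 such markers compared, 6 were lower in Nutlin-3a by the limit used below, as were 6.14% of all genes compared. All 10 summed to 5071 FPKM in DMSO and 2284 FPKM with Nutlin-3a. Markers of cell types that also make plasminogen activators were weak. The 5 macrophage markers in the table summed to 3.51 FPKM in DMSO and 8.25 FPKM with Nutlin-3a, of which Cd68 gave 2.91 and 6.52 FPKM, and Ptprc was listed at 0 and 0.0618 FPKM. The 4 endothelial markers summed to 0.218 FPKM in DMSO and 2.11 FPKM in Nutlin-3a. Markers of epithelium (0.276 and 0.790 FPKM over 4 genes), hepatocytes (0.320 and 2.02 FPKM over 3 genes), mast cells (0 and 0.00931 FPKM for 1 gene) and adipocytes (42.1 and 9.67 FPKM over 5 genes, nearly all Fabp4) completed the check; the part of these markers in the results was not tested.

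The RefSeq promoter table used here (GRCm38.p6, the assembly of mm10) matched 3 of the 6 genes, Serpine2, Plaur and Serpinf1, and all 3 sequences are shown to set a gene higher in Nutlin-3a beside a lower one and one within the limit; Plau, Plat and Serping1 were not matched. Each is the 250 bases before the RefSeq start, in the direction of transcription, and capitals mark matches to the motifs searched on both strands: GGGCGG (the core bound by Sp1), TGACTCA (the site of AP-1 factors), TATAAA (a core promoter element), the CCAAT box and the p53 half-site. Neighbouring GGGCGG matches can run together or share a base.
Serpine2: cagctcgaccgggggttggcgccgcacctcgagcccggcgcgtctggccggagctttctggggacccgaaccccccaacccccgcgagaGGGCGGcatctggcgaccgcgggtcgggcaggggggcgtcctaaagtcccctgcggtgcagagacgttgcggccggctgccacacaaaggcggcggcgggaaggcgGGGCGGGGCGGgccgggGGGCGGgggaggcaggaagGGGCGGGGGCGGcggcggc
Plaur: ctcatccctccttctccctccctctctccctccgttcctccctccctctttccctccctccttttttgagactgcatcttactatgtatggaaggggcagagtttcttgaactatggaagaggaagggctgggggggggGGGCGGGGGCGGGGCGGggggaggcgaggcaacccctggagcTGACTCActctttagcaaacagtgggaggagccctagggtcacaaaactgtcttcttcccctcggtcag
Serpinf1: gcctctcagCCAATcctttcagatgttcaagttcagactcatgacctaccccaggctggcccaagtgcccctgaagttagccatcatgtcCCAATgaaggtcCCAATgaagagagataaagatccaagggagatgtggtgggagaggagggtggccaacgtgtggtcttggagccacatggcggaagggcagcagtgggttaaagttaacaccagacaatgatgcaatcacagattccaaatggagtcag

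The windows lie at chr1:79858666-79858915 on the minus strand (Serpine2), chr7:24462233-24462482 on the plus strand (Plaur) and chr11:75422624-75422873 on the minus strand (Serpinf1). The Serpine2 window was the richest in G and C of the 3, at 78.8%, above 98.3% of all 32851 RefSeq windows of this length. It held 6 GGGCGG matches, and 32.7% of all windows held at least 1 and 1.93% held 5 or more. The Plaur window, at 59.6% G and C, held 3 GGGCGG matches, and 16.7% of all windows held 2 or more. The Plaur window also held 1 TGACTCA match from 69 to 63 bases before the start, a motif present in 4.46% of windows. The Serpinf1 window, at 51.6%, held 3 CCAAT matches, a motif present in 33.8% of windows and 2 or more times in 10.1%. TATAAA (12.4% of windows) and the p53 half-site (7.13% of windows) had no match in these 3 stretches. The RefSeq start was also the listed transcript start for Serpine2 and Serpinf1 and lay 17 bases from it for Plaur.

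Of the 6 genes, Serpine2 was higher in Nutlin-3a by 2-fold or more, and Plat and Plaur were lower by 2-fold or more. The limit was applied to the log2 ratio of FPKM with 1 added to both values, which understates differences of weakly expressed genes, whereas folds are plain FPKM ratios. Among 10331 genes compared, with a mean of at least 1 FPKM and a value above 0 in each group, 6.62% were higher and 6.14% lower by this limit. All 6 genes entered the comparison. A total of 5 of the 6 had a log2 ratio below 0, as did 45.2% of all genes compared, whose median log2 ratio was 0.07.

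**Figure D1:**
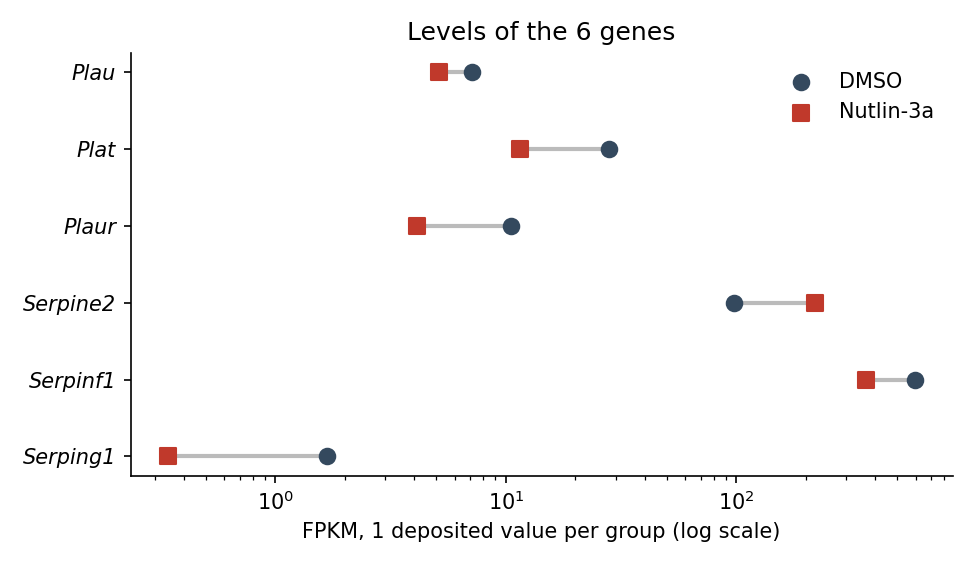
FPKM of the 6 genes on a logarithmic axis, with 1 deposited value per group (circle DMSO, square Nutlin-3a, no error available). Serpine2 is the gene whose Nutlin-3a value lies to the right (219 against 98.2 FPKM), and the levels run from 0.342 FPKM for Serping1 to 597 FPKM for Serpinf1.

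The activators, which start the pathway, had lower levels than 2 of the 3 serpin genes. Plat, the activator that works best on fibrin, was listed at 28.0 FPKM in DMSO and 11.5 FPKM with Nutlin-3a. Its value was thus 2.44-fold lower in Nutlin-3a, a log2 ratio of -1.22, and 3.65% of the genes compared had a lower ratio. Plat lies on chromosome 8 from 22757722 to 22782848 (mm10, plus strand), and its longest GENCODE transcript has 14 exons. Plau, the urokinase gene, was listed at 7.11 FPKM in DMSO and 5.11 FPKM with Nutlin-3a. This difference of 1.39-fold (log2 ratio -0.41) stayed within the limit, with 21.7% of genes at a lower ratio. Plau lies on chromosome 14 from 20836662 to 20843388 (plus strand, 11 exons). In DMSO, Plat had 3.94 times the FPKM of Plau, and in Nutlin-3a 2.25 times.

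Plaur, the receptor that is anchored in the membrane by a lipid and gathers urokinase at the cell surface, was listed at 10.5 FPKM in DMSO and 4.13 FPKM with Nutlin-3a. It was 2.54-fold lower in Nutlin-3a, a log2 ratio of -1.17, with 4.14% of genes at a lower ratio. The gene lies on chromosome 7 from 24462500 to 24475873 (plus strand, 7 exons). The receptor had more FPKM than its ligand in DMSO, at 1.48 times Plau, and less in Nutlin-3a, at 0.808 times. Plat, Plau and Plaur together summed to 45.6 FPKM in DMSO and 20.7 FPKM with Nutlin-3a.

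Serpine2 was listed at 98.2 FPKM in DMSO and 219 FPKM with Nutlin-3a, which is 2.23-fold higher with the compound (log2 ratio 1.15). Its ratio was above that of 95.1% of the genes compared. Serpine2 ranked 475 of 16709 symbols by FPKM in Nutlin-3a and 933 in DMSO, so this inhibitor was among the abundant transcripts of both groups. The gene lies on chromosome 1 from 79794321 to 79858665 (minus strand, 9 exons). Serpine2 had 19.1 times the FPKM of Plat in Nutlin-3a and 3.51 times in DMSO. Against Plau the same ratio was 42.9 in Nutlin-3a and 13.8 in DMSO. These are ratios of transcript levels and say nothing of protein or protease activity. Serpinb2, a urokinase inhibitor of another serpin clade, was listed at 0.0443 FPKM in DMSO and 0.0954 FPKM in Nutlin-3a.

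Serpinf1 had the highest level of the 6 genes in both groups, at 597 FPKM in DMSO and 364 FPKM with Nutlin-3a. It was 1.64-fold lower in Nutlin-3a (log2 ratio -0.71), within the limit, with 11.2% of genes at a lower ratio. It ranked 302 of all symbols in Nutlin-3a and 206 in DMSO. The gene lies on chromosome 11 from 75410029 to 75422623 (minus strand, 8 exons). Serpinf1 made up 80.4% of the summed FPKM of the 6 genes in DMSO and 60.2% in Nutlin-3a, while Serpine2 made up 13.2% and 36.3%. The sum itself was 743 FPKM in DMSO and 604 FPKM in Nutlin-3a.

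Serping1 was the weakest of the 6, listed at 1.67 FPKM in DMSO and 0.342 FPKM with Nutlin-3a. The plain ratio was 4.87-fold lower in Nutlin-3a, the widest of the 6, but the log2 ratio with 1 added was -0.99, just inside the limit. Its mean of 1.01 FPKM entered the comparison through the DMSO value. With 0.5 added instead of 1 the log2 ratio was -1.36, and with 0.1 it was -2.0. The row of Serping1 that was analysed carries class code j, which the Cufflinks programs use for a transcript that shares a splice junction with a known one without matching it, whereas the rows of the other 5 genes carry the code of a full match. Its value may therefore not stand for the whole gene, which lies on chromosome 2 from 84765360 to 84775429 (minus strand, 8 exons).

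**Figure D2:**
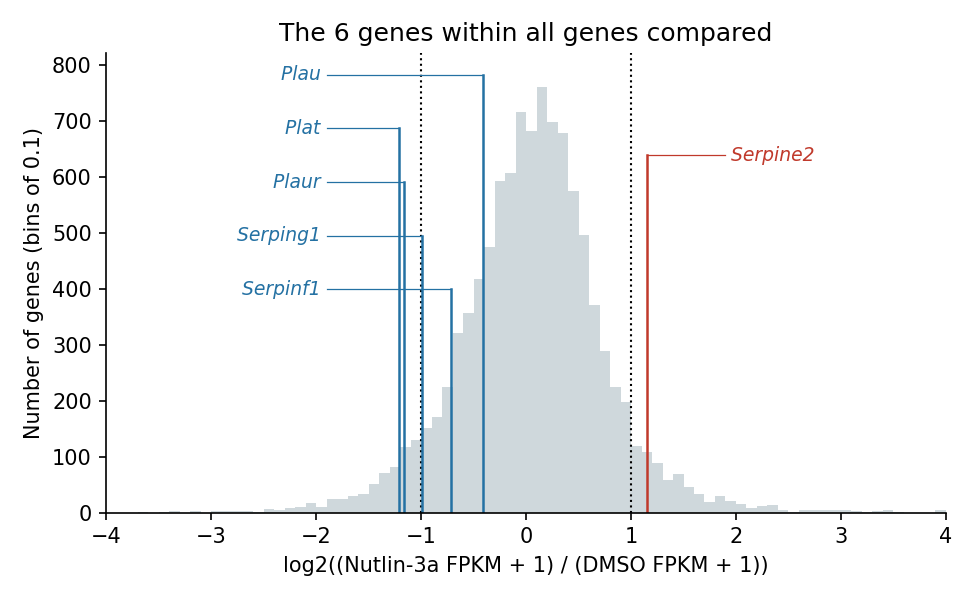
Histogram of the log2 ratio of all 10331 genes compared (bins of 0.1, values past the ends of the axis placed in the outer bins), with lines at the 6 genes and dotted lines at the 2-fold limit. Plat and Plaur lie left of the lower limit, Serping1 just inside it at -0.99, and Serpine2 right of the upper limit at 1.15.

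Both ends of each listed gene model lay within 2515 bases of the GENCODE gene of that name, so none of the 6 models reached far beyond its gene. Levels in DMSO ran from Serpinf1 through Serpine2, Plat, Plaur and Plau down to Serping1. In Nutlin-3a, Plau and Plaur were in the opposite order (5.11 and 4.13 FPKM), with the rest of the order as in DMSO. Whether neighbours in these orders differ beyond replicate spread cannot be told from 1 value per group. Across genes, ratios leaned lower with rising GC content, from a median log2 ratio of 0.25 in the lowest of 8 GC classes to -0.19 in the highest. The 6 transcripts had 48.3% to 54.4% GC and fell in the middle classes 4 to 6, whose medians ran from 0.10 to -0.04. After subtraction of the class median, the log2 ratios were 1.05 for Serpine2, -1.31 for Plat and -1.12 for Plaur.

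The list of the plasminogen system held 17 genes, of which 11 were compared, 2 higher and 2 lower by the limit (6.62% and 6.14% of all genes). Its median log2 ratio was -0.41 (-0.09 without a minimum mean), and -0.09 over the 7 compared genes that are not among the 6. The most abundant were the subunits of a surface complex that binds plasminogen and its activator, S100a10 at 1365 against 2050 FPKM and Anxa2 at 1464 against 1945 FPKM, with log2 ratios of -0.59 and -0.41. The plasminogen receptor gene Plgrkt had 73.2 against 78.0 FPKM. Lrp1, an endocytic receptor that clears complexes of serpin and protease, had 31.6 against 33.0 FPKM. Plasminogen itself (Plg), a protein of liver origin, was listed at 0 in DMSO and 0.107 FPKM in Nutlin-3a. Vtn, the gene of the urokinase receptor ligand vitronectin, was listed at 0.0350 FPKM in DMSO and 0 in Nutlin-3a.

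The higher members of this list were Serpine2 and Serpinf2, the gene of alpha 2-antiplasmin, which blocks plasmin. Serpinf2 was listed at 0.197 FPKM in DMSO and 3.19 FPKM with Nutlin-3a, a log2 ratio of 1.81, and entered the comparison only through the Nutlin-3a value. Values this low are uncertain, since zeros were more common in DMSO (15.6% of all transcripts) than in Nutlin-3a (4.91%).

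Of 13 serpin genes compared, 8 had a log2 ratio below 0, beside 45.2% of all genes compared. The table held 39 serpin symbols, of which 13 were compared, 3 higher and none lower by the limit, beside 6.62% and 6.14% of all genes. The 13 had a median log2 ratio of -0.69 (-0.67 over the 10 that are not among the 6 genes). That median was 0.01 without a minimum mean, and the number lower by the limit was 4 after a correction for GC content. Besides Serpine2 and Serpinf2 the higher one was Serpina3n, a secreted inhibitor of leukocyte proteases, at 5.11 against 1.95 FPKM (log2 ratio 1.05). Of the 3 higher ones, Serpinf2 entered the comparison only through its Nutlin-3a value. The most abundant serpin apart from Serpinf1 was Serpinb6a, an intracellular inhibitor, with 245 against 380 FPKM. Serpinh1, the collagen chaperone of the endoplasmic reticulum, had 57.5 against 96.3 FPKM. The Serpina3 and Serpinb genes lie in clusters of near copies that can share reads, so their values are uncertain.

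The C1r and C1s genes, whose proteases the Serping1 product inhibits, were lower in Nutlin-3a. Masp2, another protease it inhibits, was under the minimum mean and had the higher value in Nutlin-3a (1.12 against 0.192 FPKM). Of 33 genes on the complement and contact list, 25 were in the table and 9 were compared. By the limit 6 were lower and none higher (6.14% and 6.62% of all genes), with a median log2 ratio of -1.25 (-0.27 without a minimum mean). C1ra, the main gene of the C1r protease that starts the classical cascade, had 47.6 FPKM in DMSO and 16.5 FPKM with Nutlin-3a, which is 2.89-fold lower with the compound. C1s1, the gene of the C1s protease that C1r cleaves, had 6.56 against 18.0 FPKM (2.74-fold lower). Their near copies C1rb (7.20 against 18.5 FPKM) and C1s2 (0.504 against 2.08 FPKM) were lower as well, and reads may be shared within each pair. C1rl, a C1r-like protease gene, had 0.958 against 5.98 FPKM, and C3, the central complement component, had 22.1 against 68.4 FPKM, a 3.09-fold lower value. C1s2 and C1rl were below 1 FPKM in Nutlin-3a and entered the comparison only through the DMSO value. With a mean of at least 5 FPKM, 4 genes of the list were lower, beside 6.77% of all genes compared.

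**Figure D3:**
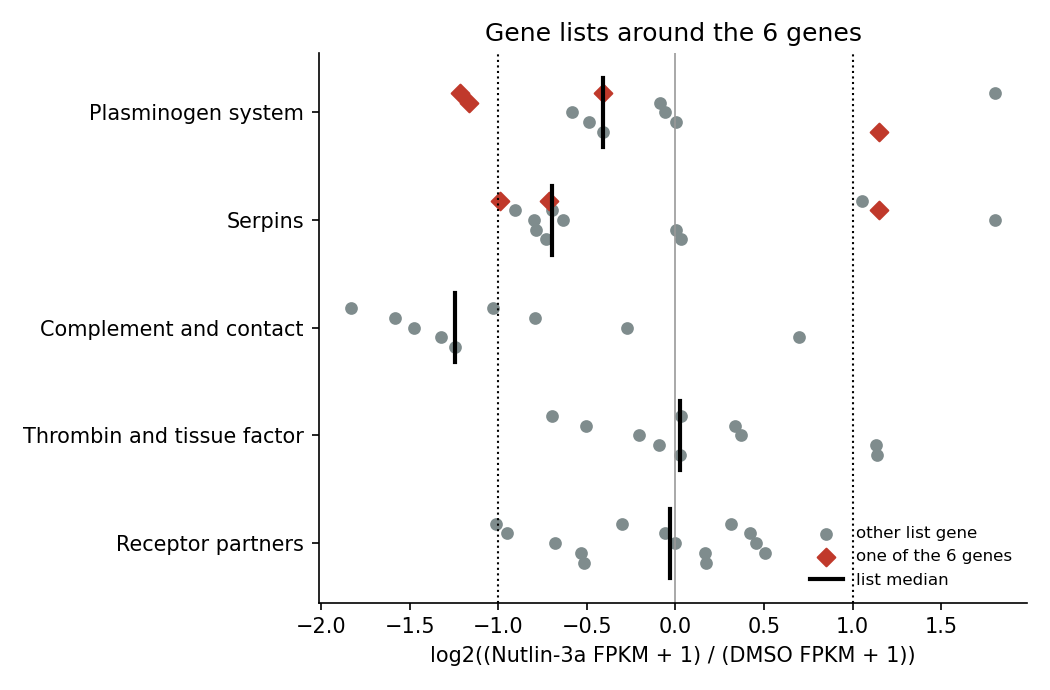
Log2 ratio of each compared gene on 5 gene lists (points, stacked for legibility), with red diamonds for the 6 genes, black bars at list medians and dotted lines at the 2-fold limit. The complement and contact list has its median at -1.25, left of the lower limit, whereas the thrombin list centres near 0 (0.03 here, -0.06 after a correction for GC content).

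Thrombin is another target of the Serpine2 product. Of 22 genes around thrombin and tissue factor, 10 were compared, 2 higher and none lower by the limit (6.62% and 6.14% of all genes). The median log2 ratio of these 10 was 0.03 (-0.06 with the GC correction). The higher ones were Gas6 (131 against 59.1 FPKM) and Pros1, the protein S gene (33.1 against 14.5 FPKM), which encode related ligands of the TAM receptor kinases. Their folds were 2.22 and 2.28. F3, the tissue factor gene, had 101 against 108 FPKM, its inhibitor Tfpi had 30.5 against 43.8 FPKM, and the thrombin receptor gene F2r had 22.9 against 22.5 FPKM. Thrombin itself (F2) was listed at 0 in DMSO and 0.383 FPKM in Nutlin-3a.

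Partners of the urokinase receptor and receptors of the Serpinf1 product were mostly within the limit, as were 9013 of all 10331 genes compared. Of 18 genes, 14 were compared, 1 lower and none higher (6.14% and 6.62% of all genes), with a median log2 ratio of -0.03. The integrin beta 3 gene Itgb3 was the lower one (2.38 against 5.81 FPKM, log2 ratio -1.01), beside Plaur in direction, while Itgb1 had 55.6 against 38.8 FPKM. Mrc2, a collagen receptor that associates with the urokinase receptor, had 31.1 against 61.0 FPKM, a log2 ratio of -0.95. Rpsa, a ribosomal and laminin-binding protein with many processed copies in the genome and so an uncertain value, had 3297 against 2649 FPKM.

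**Figure D4:**
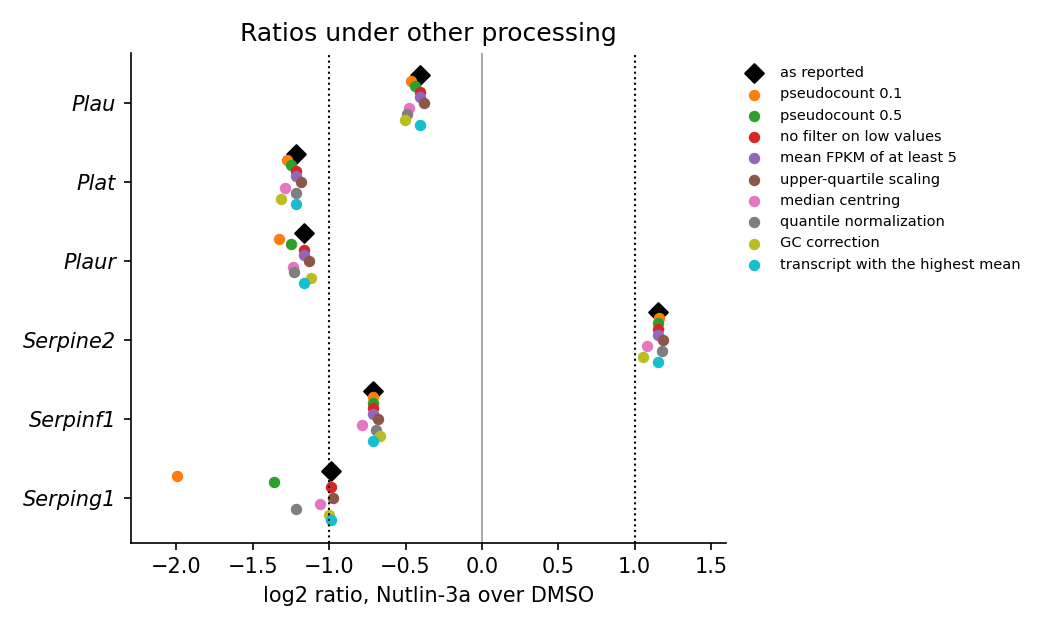
Log2 ratio of the 6 genes as reported (black diamonds) and under 9 other processing choices (coloured points), with dotted lines at the 2-fold limit. Serpine2 runs from 1.05 to 1.19 and Plat from -1.31 to -1.18, whereas Serping1 runs from -2.0 to -0.98 and crosses the limit.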

How the data were processed

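Total RNA of 4 libraries, 2 biological replicates each of Nutlin-3a and DMSO, was sequenced, per the labels. Per the submitters' processing notes, reads were handled with TopHat2 2.0.11 and build mm10. Which program computed FPKM, on which annotation, and how replicates were joined is not given in the sources used here. FPKM values, deposited as 1 per group, covered 24746 transcripts. The column prefixes NUT and DSM were read as Nutlin-3a and DMSO. Low values of FPKM times GENCODE transcript length were searched for whole-read steps. In Nutlin-3a 19.2% and in DMSO 19.8% lay within 0.1 of a whole multiple, against 20% for an even spread. The step was estimated coarsely and the values join 2 replicates, so steps could be missed and depth stayed unknown.

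FPKM was summed per symbol with pandas 2.3.3, and log2((Nutlin-3a + 1)/(DMSO + 1)) was computed for symbols with a mean of at least 1 FPKM and values above 0. The 2-fold limit replaced a test. The calls were tested on simulated data with large planted changes, which checks the code and says nothing of replicate spread. Exons and GC content came from GENCODE M21 by symbol (GC for 9935 genes, 96.2%). Starts are printed counted from 1.

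The members and lists were chosen with earlier results of these data known. Named were the 6 genes, list members past the limit with at least 5 FPKM in one group, and the 3 most abundant per list. Serpinf2, Serpinh1, Plgrkt, Lrp1, Plg, Vtn, C1s2, Serpinb2, Masp2, F2, F2r and the genes of the closing observations were named after their values were seen. No gene was named for a likeness in pattern, since 2 group values give none. Some list genes are not reported here by name or value.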

Additional observations from a re-analysis of the deposited data

How the results depend on the processing

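Alternatives were pseudocounts of 0.1 and 0.5, no minimum mean, a mean of at least 5 FPKM, upper-quartile, median and quantile scaling, a GC correction, the transcript with the highest mean per symbol, and limits of 1.5-fold and 3-fold. Serpine2 (1.05 to 1.19), Plat (-1.31 to -1.18) and Plaur (-1.33 to -1.12) stayed past the 2-fold limit under every scaling, filter and pseudocount run, and Plau (-0.51 to -0.38) and Serpinf1 (-0.78 to -0.67) within it. Serping1 passed the limit at -2.0 (pseudocount 0.1), -1.36 (0.5), -1.06 (median centring), -1.22 (quantile) and -1.0 (GC), and dropped out at a mean of 5 FPKM. With a 1.5-fold limit 4 of the 6 genes were lower and 1 higher, beside 15.2% lower and 17.8% higher of all genes compared. With 3-fold 0 were higher and 0 lower, beside 1.95% and 1.49% of all genes. At the 2-fold limit, the share of all genes that were lower ran from 4.65% (no minimum mean) to 8.18% (pseudocount 0.1). The share higher ran from 5.43% to 9.66% at the same settings. Lower serpins numbered 2 with either pseudocount and with quantile scaling, 1 with median centring, 4 with the GC correction and 8 at 1.5-fold. Higher serpins numbered 2 with median centring and with quantile scaling. Higher serpins and higher plasminogen system genes numbered 1 each at a mean of 5 FPKM and at 3-fold, where lower plasminogen system genes numbered 0. Lower complement genes numbered 7 with the GC correction and at 1.5-fold, 4 at a mean of 5 FPKM and 1 at 3-fold, and 1 was higher at 1.5-fold. Thrombin list genes numbered 1 higher with the GC correction, 1 lower at 1.5-fold and 0 higher at 3-fold. Without a minimum mean, which brings in genes near 0, the serpin median was 0.011, the complement median -0.27 and the plasminogen system median -0.09. The thrombin list median was -0.045 (median centring), -0.019 (quantile) and -0.063 (GC). For the other changes the cause was not tested. The share of higher among all called genes was 51.9% as reported and ran from 45.0% with median centring to 56.6% at 3-fold. No paired analysis was possible because the table holds 1 value per group and none per library; leaving out replicates was not run for the same reason.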

Other observations

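Serpinf1 and Serpinf2 are neighbours on the minus strand of chromosome 11, from 75410029 to 75422623 and from 75431736 to 75439501 (mm10), with 9112 bases between the listed gene models. Serpinf1 was listed at 597 FPKM in DMSO and 364 FPKM with Nutlin-3a, within the limit, and Serpinf2 at 0.197 and 3.19 FPKM. The listed values of these neighbours differed in opposite directions, but the Serpinf2 value in DMSO is near 0 and uncertain. Serpinf1 had 114 times the FPKM of Serpinf2 in Nutlin-3a and 3024 times in DMSO, and the ratio in DMSO is equally uncertain.

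By clade, the 19 clade B serpin genes of the table, which encode mainly intracellular inhibitors, summed to 402 FPKM in DMSO and 259 FPKM with Nutlin-3a, nearly all of it Serpinb6a. The clade B genes Serpinb9, an inhibitor of granzyme B (2.68 against 5.36 FPKM), its relative Serpinb9b (1.81 against 4.27 FPKM) and Serpinb8 (2.85 against 5.70 FPKM) had plain folds of 2.0, 2.35 and 2.0 and lay inside the limit with 1 added. Serpinb1a, an inhibitor of neutrophil proteases, had 5.01 against 4.89 FPKM. The clade A gene Serpina3g had 15.2 against 25.3 FPKM while Serpina3n of the same clade had 5.11 against 1.95 FPKM.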
